A study of Mus musculus with 6 samples.

Results

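The 40 genes described here are core genes of the cell division cycle, taken by symbol from the 31053 features of a mouse single-cell dataset. All 40 symbols were found, each once. They comprise 15 genes of DNA replication and S phase and 25 genes of G2 and mitosis. Cells were taken from 6 colonic tumours of male mice, 3 of a model labelled Apc ICI and 3 of a model labelled AOM PN, with 1 droplet-based 3′ library of unique molecular identifiers (UMIs, each marking 1 captured transcript) per tumour. The question here is how the share of dividing cells and the levels of these genes compared between the cell types of a tumour, and between the models. Apc ICI mice were VilCreER Apcfl/fl and received a single injection of 70 µl of 100 µM 4-OH tamoxifen into the colonic submucosa, and no other treatment is listed for them. AOM PN mice were VilcreER P53fl/fl Notch1Tg and received 2 mg of tamoxifen intraperitoneally, then azoxymethane (AOM, a colon carcinogen) at 10 mg/kg weekly for 6 weeks from day 4. Both groups therefore carried a tamoxifen-inducible Cre driven by the villin promoter, which is active in intestinal epithelium, and tumours were collected at clinical endpoint. The models differed in the targeted genes, the carcinogen and the way Cre was induced, and the effects of these cannot be told apart. The labels gave neither the ages nor a batch, and did not say that every tumour came from its own animal. The p-values below therefore cover only the scatter among these 6 samples.

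A dividing cell first copies its DNA in S phase. Before that, Cdc6 and Cdt1 load the replicative helicase (Mcm2 to Mcm7) onto DNA. The helicase, its activator (Gins2), the sliding clamp Pcna and the enzymes of nucleotide supply (Rrm1, Rrm2, Tyms) act in S phase. Cyclin A2 and the B cyclins then activate Cdk1, mitotic kinases and kinesins separate the chromosomes, and the anaphase-promoting complex with Cdc20 and Ube2c destroys the cyclins. In the healthy colon, division takes place mainly in crypt epithelium, while mature neutrophils have left the cycle for good.

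Promoter sequences of 5 members are shown because the members that fell together in 1 cell class, below, were all G2 and mitosis genes. Promoters of 34 of the 40 members were found in the RefSeq table for GRCm38.p6, each window running from 250 bases upstream to 50 bases downstream of the start. The cell cycle homology region (CHR, TTTGAA on either strand) was found in 17 of 22 G2 and mitosis promoters, in 1 of 12 S phase promoters and in 18.1% of all 27025 promoters. The CCAAT box (CCAAT, either strand) was found in 20 of 22, in 8 of 12 and in 37.9%. An E2F element (TTTGGCGC, TTTCCCGC or TTTCGCGC, either strand; matches can overlap each other) was found in 1 of 22, in 6 of 12 and in 1.91%. Each line below gives the 160 bases upstream of the RefSeq start, 5′ to 3′ on the gene's strand. Capitals mark CHR and CCAAT matches in Cdc20 (chr4:118437344-118437503, minus strand), Ube2c (chr2:164769769-164769928, plus strand) and Cdk1 (chr10:69352913-69353072, minus strand). Capitals mark E2F matches in Mcm5 (chr8:75109349-75109508, plus strand) and Mcm6 (chr1:128359706-128359865, minus strand). Only the motifs named for a gene are in capitals, so the E2F match in Cdk1, the 1 of 22, is in lower case. Of the 9 members that fell together, Birc5 held neither CHR nor CCAAT, Cenpe held CCAAT but not CHR, and no promoter was found for Ccna2. The others held both. A match is a run of letters and not a shown binding site.
Cdc20: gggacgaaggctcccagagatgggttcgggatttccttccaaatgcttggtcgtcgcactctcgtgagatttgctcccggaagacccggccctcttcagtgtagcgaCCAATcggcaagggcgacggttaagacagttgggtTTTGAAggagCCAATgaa
Ube2c: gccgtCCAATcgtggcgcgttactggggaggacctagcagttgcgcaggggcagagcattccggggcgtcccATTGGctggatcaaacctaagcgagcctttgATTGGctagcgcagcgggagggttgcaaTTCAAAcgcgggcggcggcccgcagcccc
Cdk1: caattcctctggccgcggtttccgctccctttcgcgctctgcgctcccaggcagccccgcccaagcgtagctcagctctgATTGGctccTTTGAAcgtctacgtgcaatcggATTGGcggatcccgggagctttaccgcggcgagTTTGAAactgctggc
Mcm5: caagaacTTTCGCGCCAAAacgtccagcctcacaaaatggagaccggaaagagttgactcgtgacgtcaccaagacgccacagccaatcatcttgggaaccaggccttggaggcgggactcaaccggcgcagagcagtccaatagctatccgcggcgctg
Mcm6: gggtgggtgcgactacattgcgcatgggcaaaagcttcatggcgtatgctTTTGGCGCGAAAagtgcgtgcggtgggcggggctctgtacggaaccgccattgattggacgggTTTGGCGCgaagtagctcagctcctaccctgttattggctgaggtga

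Apc ICI libraries held 59309093 to 60075436 UMIs, 21.4% to 61.4% of them from haemoglobin, and AOM PN libraries 87107277 to 98583066, 1.87% to 29.0% from haemoglobin. After filtering, 46062 cells were kept (4726 to 6804 per Apc ICI library, 8060 to 11399 per AOM PN library), and 214 of 45847 distinct barcodes occurred in more than 1 library. Cells were clustered without the members, the cycle genes of the further lists below and histone genes. Clusters were named by marker genes only: 4418 epithelial-like, 8776 monocyte/macrophage-like, 4538 T/NK-like, 1582 dendritic-like, 878 B-like and 3783 mast-like cells. A cell was called cycling where, after random thinning to 1000 UMIs without haemoglobin, it held UMIs of at least 3 members. Cells with fewer than 1000 UMIs were left out of these shares. Neutrophil-like cells (16211) gave the background measured the same way. The 60 of them that counted as cycling held 201 UMIs per 10000 of neutrophil progenitor markers, against 0.765 in the others.

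Epithelial-like cells had the highest mean cycling share of the classes with enough cells in all 6 libraries, and the models overlapped. By the same rule, erythroid-like cells, used in no comparison, gave 16.7% ± 4.55 in Apc ICI (SD, n = 3). In AOM PN only replicate 1 had enough of them, with 2 of 20 cells (10%). The epithelial-like cycling share was 12.2%, 16.1% and 15.9% in Apc ICI 1, 2 and 3, against 16.3%, 11.2% and 11% for AOM PN 1, 2 and 3. The groups overlapped, with means of 14.7% ± 2.22 and 12.8% ± 3.04 (SD, n = 3 each). Neutrophil-like cells gave 0.284%, 0.594% and 0.387% in Apc ICI against 0.205%, 0.308% and 0.445% in AOM PN, so every epithelial-like library lay far above them. Median depth was 3112 UMIs in neutrophil-like cells that were not cycling and 3819 in such epithelial-like cells. The epithelial-like share rests on 427, 849 and 534 cells of at least 1000 UMIs in Apc ICI (of 537, 1011 and 701) and on 551, 483 and 347 in AOM PN (of 970, 683 and 516), so more of the AOM PN cells were too shallow to count. Without thinning the means were 45.8% ± 6.08 and 21.5% ± 0.295, at median depths of 2976 to 7155 UMIs per cell in Apc ICI against 1139 to 1656 in AOM PN. Thinned to 500 UMIs the groups no longer overlapped (difference of -3.65 percentage points) and thinned to 1500 UMIs the difference was 0.0664.

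**Figure D1:**
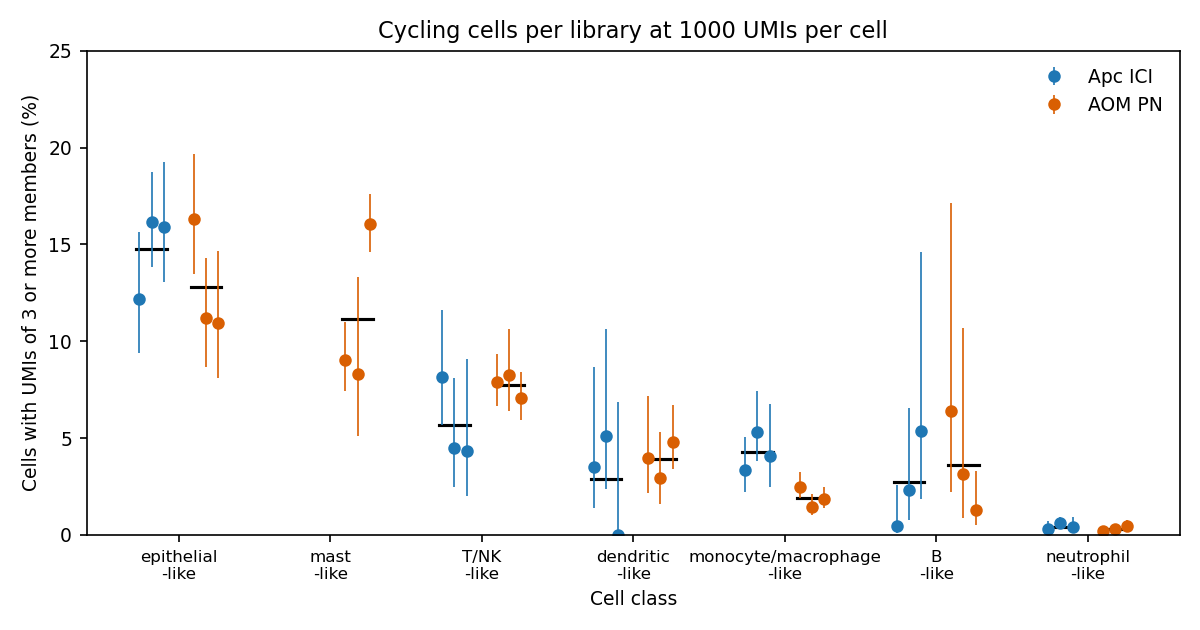
Share of cells with UMIs of 3 or more of the 40 members after thinning to 1000 UMIs (y axis, %), per cell class (x axis) and library; points are libraries, bars are 95% Wilson intervals, colours are the models. Epithelial-like libraries lie between 11% and 16.3%, mast-like AOM PN libraries between 8.33% and 16.0%, and neutrophil-like libraries between 0.205% and 0.594%.

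Within the epithelium, the cycling share varied widely between sub-clusters, and different sub-clusters held most cells in each model. In Apc ICI, 46.1% of 191 cells led by Krt19, Mt4 and Stmn1 and 30.2% of 315 cells led by Epcam, Mt4 and Krt8 were cycling, against 1.45% of 69 cells led by Spink4, Defa24 and Lyz1, genes of secretory cells. Ranked against all other clusters, the first of these was led by Stmn1, Hes6, S100g and Pclaf, with the member Top2a, Tuba1b and Tubb5 also leading. Pclaf and Tuba1b were not among the genes left out of the clustering. The high share of that sub-cluster may therefore not be independent of how it formed. In AOM PN, 35.2% of 162 cells led by Gpx2 and Lgals4 and 24.2% of 95 cells led by Reg3b were cycling, against 0 of 71 cells led by Lypd8 and Saa1. Since the sub-clusters differed between the models, the shares within them were not compared.

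Mast-like cells of AOM PN also cycled, with 91 of 1005 cells (9.05%; 95% Wilson interval 7.43% to 11%) in AOM PN 1, 15 of 180 (8.33%; 5.11% to 13.3%) in AOM PN 2 and 368 of 2294 (16.0%; 14.6% to 17.6%) in AOM PN 3. AOM PN 3 was the highest and lay within the range of the epithelial-like libraries, and the other two lay below that range. Apc ICI held only 7, 9 and 9 mast-like cells of that depth, so no share or change was computed for that model. Cycling mast-like cells were deeper (median 13582 UMIs) than the other mast-like cells (6936).

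In T/NK-like cells, the cycling share was 8.16%, 4.50% and 4.32% in Apc ICI against 7.88%, 8.27% and 7.07% in AOM PN, with means of 5.66% ± 2.17 and 7.74% ± 0.612 (SD, n = 3 each). Apc ICI 1 lay within the AOM PN range and the other 2 Apc ICI libraries below it, so the groups overlapped. These shares rest on 692 cells of at least 1000 UMIs of 708 in Apc ICI against 3811 of 3830 in AOM PN. Without thinning the shares were 58.1% ± 6.30 and 49.0% ± 11.6. Left unnamed, and so outside this class, was a cluster led by Ikzf2, Ttn and Rora, with 8 T/NK markers detected. Apc ICI libraries gave 397 of its 629 members and AOM PN libraries 232. A cluster led by Cd7, Xcl1 and Gzmc, genes of innate-like cytotoxic lymphocytes, had the highest shares in AOM PN (12.2% to 20% of its cells), and Apc ICI held 5 cells of it. Without that cluster the means were 5.71% ± 2.14 and 6.81% ± 0.0692. Cells led by Tnfrsf4 and Ctla4, genes of regulatory T cells, cycled at 8.33% in Apc ICI against 8.31% in AOM PN.

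Monocyte/macrophage-like cells were the class whose cycling share separated the models, with higher values in Apc ICI. The share was 3.37%, 5.32% and 4.09% in Apc ICI against 2.49%, 1.45% and 1.84% in AOM PN (means 4.26% ± 0.986 and 1.92% ± 0.525, SD, n = 3 each). The groups did not overlap, here or at any other thinned depth or member threshold tried. At that depth there were 1595 of 2067 cells in Apc ICI against 6377 of 6709 in AOM PN. Without thinning the direction turned, with 30.9% ± 5.96 and 35.4% ± 8.80, overlapping. No p is given for a share over the members.

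One cluster held most of these cells. It was led by Apoe, C1qa, C1qb, C1qc, Pf4, Lyz2 and Ms4a7, genes of mature tissue macrophages. It held 141 of the 191 cycling cells (73.8%) but 14.0% of the class's cells of at least 1000 UMIs. Within it the order of the models was the opposite: the cycling share was 9.64%, 11% and 10.5% in Apc ICI against 15.1%, 11.2% and 16.3% in AOM PN (10.4% ± 0.697 and 14.2% ± 2.67). The groups did not overlap, but AOM PN 2 lay just above Apc ICI 2. Of the class's cells of at least 1000 UMIs, the cluster made up 25.5%, 37.8% and 38.9% in Apc ICI against 13.9%, 7.41% and 6.93% in AOM PN. Of all cells of the class, it made up 38.4%, 50.8% and 54.2% against 19.2%, 8.61% and 8.38%. Outside it the cycling share was 1.23%, 1.87% and 0% in Apc ICI against 0.453%, 0.671% and 0.762% in AOM PN, and the groups overlapped. In AOM PN the share of the whole class was lower, the C1q cluster was smaller, and the share inside it was higher. Outside it the means were 1.04% ± 0.952 in Apc ICI and 0.629% ± 0.159 in AOM PN (SD, n = 3 each). What part each of these had was not tested. A small second cluster led by C1q and MHC class II genes, 62 and 83 cells at depth in Apc ICI and AOM PN, held 1 cycling cell in each model and is counted as outside. Cells of the first cluster were also shallow, with library medians of 1011 to 2267 UMIs against 7478 to 12536 in the other clusters. Over the whole class, cycling cells had a median of 2859 UMIs and the others 8461. What part depth had in these values was not tested. The split by cluster was made after the values had been seen.

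**Figure D2:**
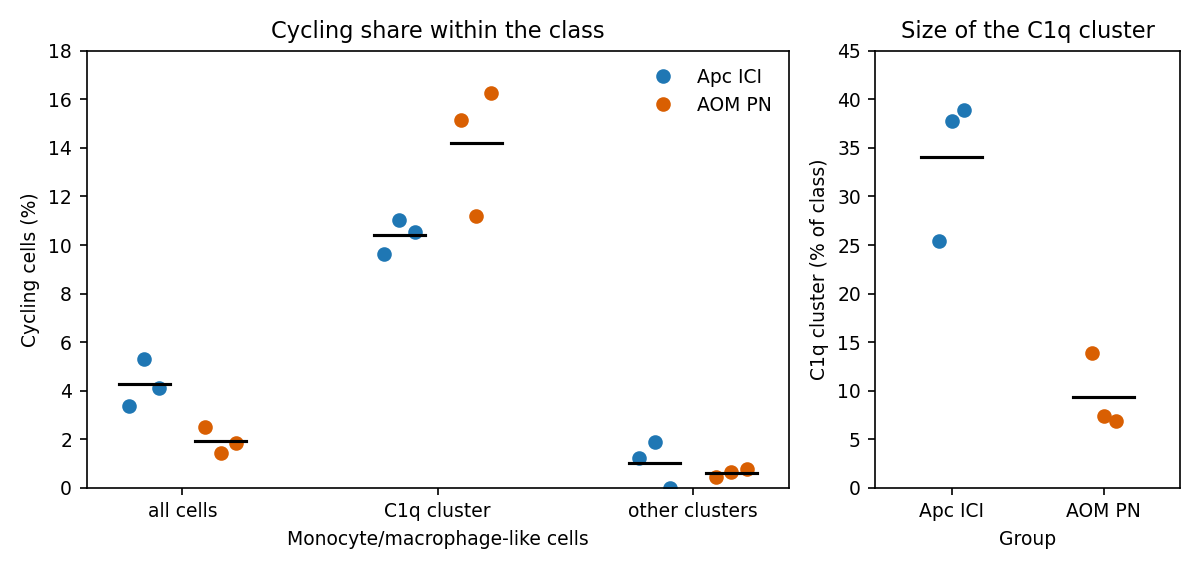
Left, cycling share (y axis, %) of monocyte/macrophage-like cells in the whole class, in the C1q cluster and outside it (x axis); right, the C1q cluster as a share of the class (y axis, %) per model (x axis). Points are libraries and lines are means of 3, and all shares are over cells of at least 1000 UMIs. The class as a whole is higher in Apc ICI and the C1q cluster alone is higher in AOM PN. The cluster makes up 25.5% to 38.9% of such cells in Apc ICI against 6.93% to 13.9% in AOM PN.

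Dendritic-like cells cycled at 3.51%, 5.08% and 0% in Apc ICI against 3.97%, 2.94% and 4.78% in AOM PN, and the groups overlapped. The value of 0% is 0 of 52 cells, for which the 95% Wilson interval reaches 6.88%. Pooled over libraries, 10 dendritic-like cells were cycling in Apc ICI and 51 in AOM PN. Pooled in the same way, the cluster led by Cst3 and H2-Ab1 had shares of 5.13% and 4.77%. The cluster led by Ccr7 and Fscn1, genes of migrating dendritic cells, had lower shares of 1.90% and 3.48%. The Apc ICI values rest on no more than those 10 cycling cells, and this order was not tested. Another cluster, led by Ly6d and Siglech, had 24 and 122 cells and was not compared. The 61 cycling dendritic-like cells held fewer dendritic cell markers (5.51 UMIs per 10000) than the others (19.9). Neutrophil markers were higher in them (13.6 against 10.2) and mast cell markers lower (6.08 against 8.47). What part these had was not tested. B-like cells cycled at 0.467%, 2.31% and 5.36% in Apc ICI against 6.38%, 3.12% and 1.31% in AOM PN, which is 1 to 4 cells per library. The groups overlapped at 1000 UMIs and did not at 500 (means of 0% and 2.06%) or at 1500 UMIs (4.55% ± 0.871 and 7.77% ± 1.14), with AOM PN higher in both.

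In epithelial-like cells, those near the threshold were few next to those with none. At 1000 UMIs, 56.4% of epithelial-like cells held no member, 23.5% held 1, 5.83% held 2, 3.48% held 3 and 10.8% held 4 or more. In mast-like cells 9.59% held 4 or more, in T/NK-like 4.24%, in dendritic-like 2.69%, in monocyte/macrophage-like 1.51%, in B-like 0.490% and in neutrophil-like 0.0325%. Just under the threshold, with 2 members, were 13.9% of T/NK-like and 10.7% of B-like cells. Exactly 3 members were held by 3.15% of T/NK-like and 1.47% of B-like cells. S phase genes gave 22.1% of the member UMIs in epithelial-like cells, 25% in T/NK-like, 25.8% in monocyte/macrophage-like, 26.9% in mast-like, 28.0% in B-like and 29.9% in dendritic-like cells, against 5.07% in neutrophil-like cells.

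Members differed in how far they were restricted to classes with many cycling cells. Hmgb2, a chromatin protein placed among the G2 and mitosis genes, was found in 43.6% of neutrophil-like cells at 1000 UMIs, more than in any other class (39.4% of T/NK-like, 32.7% of mast-like, 22.1% of epithelial-like cells). Pcna, which also serves DNA repair, was found in 4.01% of epithelial-like and 2.05% of neutrophil-like cells. Cdk1 and Top2a behaved otherwise: Cdk1 was found in 2.76% of epithelial-like cells and 0.0909% of neutrophil-like cells, and Top2a, which untangles replicated DNA, in 5.33% and 0.286%. Cenpa, the histone of the centromere, was highest in B-like cells (12.4%), as was the replication licensing factor Cdt1 (4.41%), in a class with 16 cycling cells in all. Leaving out Hmgb2 and Pcna kept the direction of the models' difference in cycling share in epithelial-, T/NK- and monocyte/macrophage-like cells. It was -1.50, 1.78 and -2.12 percentage points there. The shares themselves fell. T/NK-like means went from 5.66% to 2.98% in Apc ICI and from 7.74% to 4.76% in AOM PN. B-like means went from 2.71% to 1.01% and from 3.61% to 1.23%. Neutrophil-like means went from 0.422% to 0.0189% and from 0.319% to 0.0305%. Epithelial-like means went from 14.7% to 12.5% and from 12.8% to 10.99%.

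**Figure D3:**
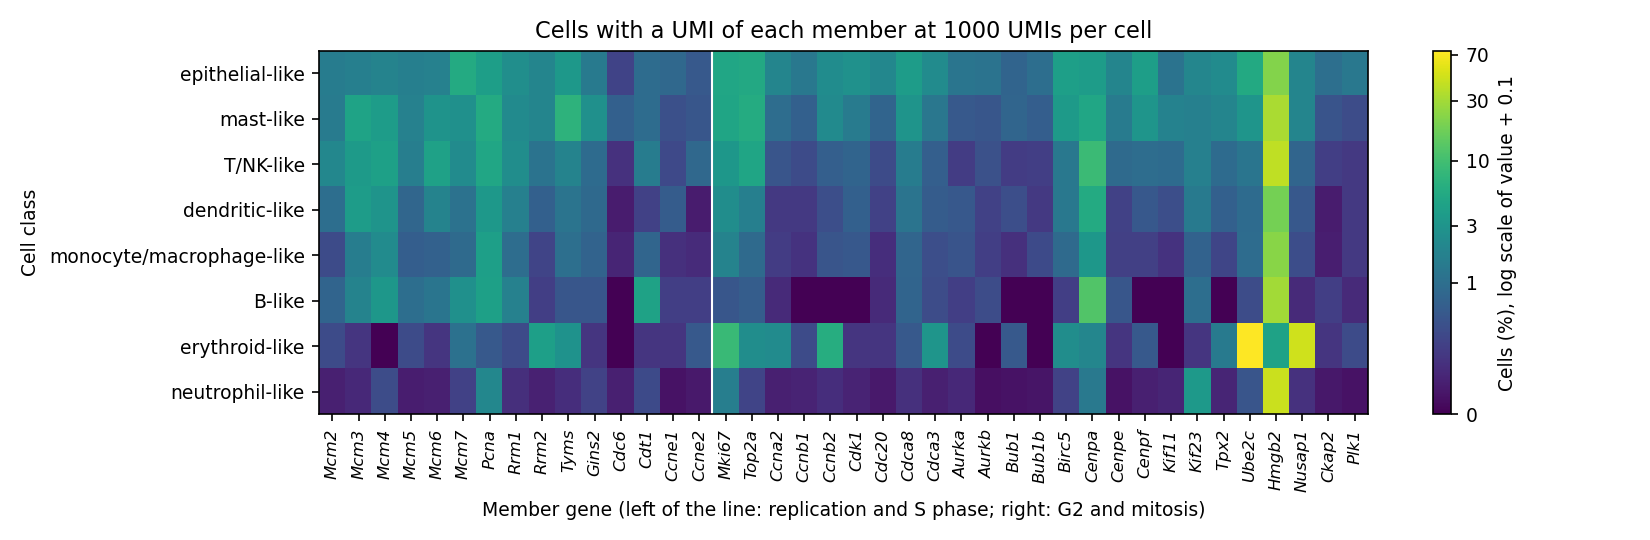
Percentage of cells with a UMI of each member at 1000 UMIs per cell (colour, log scale of value + 0.1), for the 40 members (x axis, S phase genes left of the line) in 8 cell classes (y axis). Hmgb2 is found in every class, Ube2c and Nusap1 stand out in erythroid-like cells at 75.0% and 46.6%, and most other members are highest in epithelial-, mast- and T/NK-like cells.

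Levels over all UMIs of a class were compared for 9 members. All levels in this paragraph and the next are UMIs per 1000000 of a class without haemoglobin, as the median and range of 6 libraries (4 for mast-like cells, including 1 Apc ICI library of 21 cells), and fewer expressing cells and fewer transcripts per cell cannot be told apart in them. The helicase subunit Mcm6 was highest in T/NK-like cells (61.7, range 28.4 to 78.6), then mast-like (44.2, 33.7 to 234), dendritic-like (29.3, 20.3 to 36.5), epithelial-like (23.5, 20.7 to 34.1), B-like (16.6, 11.2 to 64.7), monocyte/macrophage-like (6.12, 4.49 to 12.8) and neutrophil-like cells (1.08). Neighbours in this order down to monocyte/macrophage-like cells overlapped, while monocyte/macrophage-like cells as a whole lay below epithelial-like cells. Pcna levels were closer together, from a median of 71.6 in mast-like and 57.4 in T/NK-like cells to 46.0 in monocyte/macrophage-like, 46.0 in dendritic-like, 45.2 in epithelial-like and 36 in B-like cells, all overlapping their neighbours. Tyms, thymidylate synthase, was highest in mast-like cells (84.1, 66.1 to 114), then epithelial-like (46.0, 34.2 to 48.3), T/NK-like (30.7, 21.2 to 38.5), dendritic-like (19.2, 11.5 to 24.6), monocyte/macrophage-like (9.36, 6.55 to 15.2) and B-like cells (4.33, 0 to 64.7). In the 3 AOM PN mast-like libraries Tyms stood at 74.5, 66.1 and 114, above every epithelial-like library.

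Of the G2 and mitosis genes, the proliferation antigen Mki67 was highest in mast-like cells (101, 86.4 to 445), then epithelial-like (81.3, 55.7 to 145), T/NK-like (75.2, 59.3 to 81.1), dendritic-like (41.1, 16.7 to 61.6), neutrophil-like (22.5, 8.52 to 38.9), monocyte/macrophage-like (20.6, 17.9 to 46.4) and B-like cells (5.14, 0 to 164). Neighbours in this order overlapped, and the B-like maximum was AOM PN 1, with 33 UMIs in 47 cells. Top2a was highest in T/NK-like cells (113, 70.3 to 135) and mast-like cells (109, 77.3 to 187), then epithelial-like (64.3, 49.99 to 98.0), dendritic-like (35.6, 4.56 to 54.3) and monocyte/macrophage-like cells (8.40, 5.02 to 15.9). T/NK- and epithelial-like cells overlapped in Top2a, as did epithelial- and dendritic-like cells, while monocyte/macrophage-like cells lay below T/NK-, mast- and epithelial-like cells without overlap. Cdk1, the kinase of mitotic entry, was highest in epithelial-like cells (24.2, 18.6 to 41.1), then mast-like (22.9, 18.1 to 28.8), T/NK-like (17.7, 8.14 to 25), dendritic-like (8.85, 1.52 to 11.2), monocyte/macrophage-like (3.66, 1.06 to 9.59) and B-like cells (0, 0 to 49.8). Its partner Ccnb1 had the same top (17.9, 12.9 to 24.7 in epithelial-like cells) and did not overlap T/NK-like cells (7.57, 5.68 to 10.5). Ube2c, which marks the cyclins for destruction, stood at 82.6 (50.5 to 179) in epithelial-like, 54.9 (0 to 85.1) in mast-like, 44.0 (24.9 to 69.3) in T/NK-like, 14.8 (6.04 to 27.6) in dendritic-like and 9.92 (3.41 to 20.04) in monocyte/macrophage-like cells. Hmgb2 alone of the 9 was as high in neutrophil-like cells (700.1, 585 to 812) as in mast-like (704, 584 to 773) and T/NK-like cells (810, 667 to 966), above epithelial-like cells (440, 374 to 456).

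**Figure D4:**
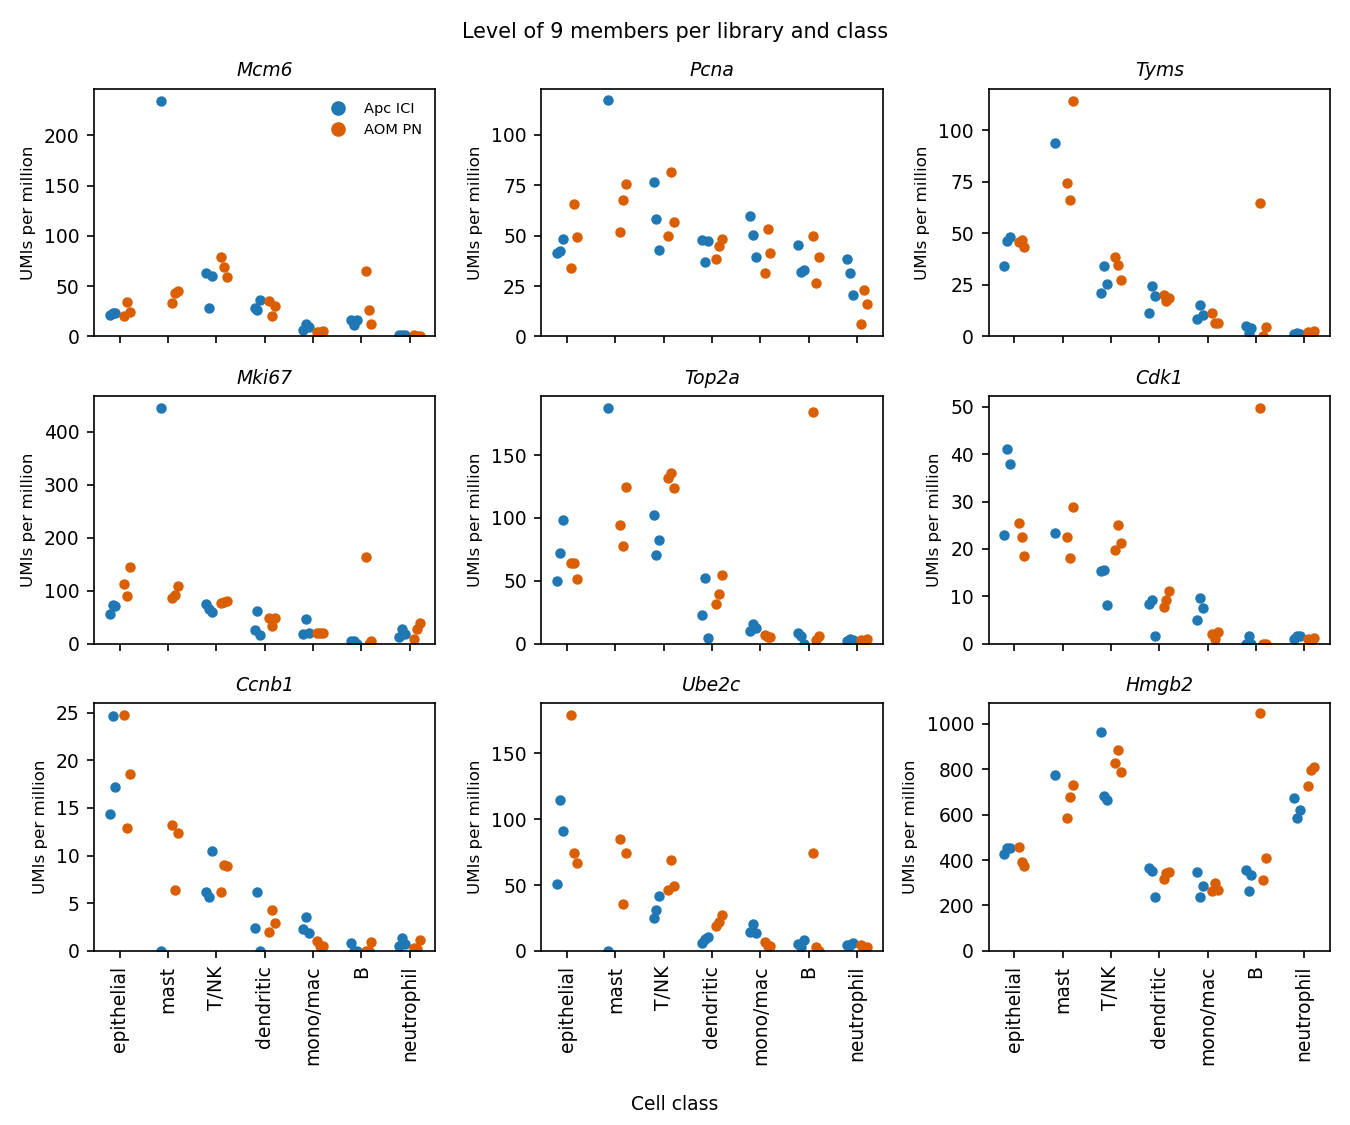
Level of 9 members (one panel each, y axis from 0, UMIs per 1000000 of the class without haemoglobin) by cell class (x axis); points are libraries and colours are the models. Cdk1 and Ccnb1 are highest in epithelial-like cells, Tyms in mast-like cells, and Hmgb2 is high in neutrophil-like cells too.

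Counting all members, 34 of 40 were higher in epithelial-like than in monocyte/macrophage-like cells with no overlap between the 6 libraries of each, and 0 were lower. Of the 11734 genes counted enough in that pair, 47.0% were higher without overlap. T/NK-like cells exceeded monocyte/macrophage-like cells in 29 of 40 members (35.5% of genes) and fell below in 0. Epithelial-like cells exceeded dendritic-like cells in 21 of 40 (38.6% of genes). T/NK-like cells exceeded dendritic-like cells in 10 of 40, below the share of all genes (26.7%). Monocyte/macrophage-like cells lay below dendritic-like cells in 6 of 40, close to the share of all genes (14.4%). The shares of all genes cover only genes counted enough in a pair. Of members counted enough, these orders held for 9 of 39 (T/NK- over dendritic-like) and 6 of 36 (monocyte/macrophage- under dendritic-like). Between epithelial- and T/NK-like cells the members were divided, 10 higher in epithelial-like (30.4% of genes) and 4 higher in T/NK-like cells (18.7%), both below the shares of all genes. These orders are descriptions of 3′ counts and were not tested.

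Between the models, few of these genes changed in epithelial-like cells, while much of their transcriptome differed. All 40 members passed the filter on low counts, 4 rose in AOM PN and 0 fell (edgeR quasi-likelihood test, Benjamini-Hochberg adjusted p under 0.05 over 12075 genes). Of all genes tested, 45.8% were called, 23.7% higher and 22.1% lower, so the members' count lies below the background share. The groups did not overlap in 3 of 40 members, against 56.9% of all genes, and the median log2 change was 0.11, against 0.00 for all genes. Mki67 stood at 53.8, 70.9 and 69.4 counts per 1000000 (CPM, scaled by effective library size) in Apc ICI against at 120, 93.0 and 147 in AOM PN. All 3 AOM PN tumours were above all Apc ICI tumours, with a log2 change of 0.88 ± 0.17 (SE; edgeR adjusted p = 0.0026). Cdt1 stood at 8.07, 8.73 and 8.27 against 11, 17.9 and 11.2, also without overlap (0.71 ± 0.22, adjusted p = 0.028). The cyclin Ccna2 was at 17.7, 25.5 and 22.4 against 32.7, 27.2 and 31.5 (0.46 ± 0.17, adjusted p = 0.049), without overlap. Cdca8, a subunit of the chromosomal passenger complex, was at 40.1, 54.4 and 46.2 against 81.9, 60.6 and 53.5, and AOM PN 3 lay below Apc ICI 2 (0.47 ± 0.17, adjusted p = 0.048). Single tumours moved these calls: 1 rose and 1 fell (Cdk1) without Apc ICI 1, 3 rose and 1 fell (Tpx2) without AOM PN 1, 1 rose without Apc ICI 3 or without AOM PN 2, and 4 and 3 rose without Apc ICI 2 and AOM PN 3. DESeq2 called 1 and RLE factors gave 2.

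On sums of cells thinned to 1000 UMIs, which weight the cells that reach that depth alike and drop the others, more of them in AOM PN, 23 members passed the filter, Cdt1 was not among them, and Mki67, Ccna2 and Cdca8 were not called. Mki67 kept its direction (0.61, adjusted p = 0.112), Ccna2 and Cdca8 turned (-0.27 and -0.22), and Cdk1 fell (-1.01 ± 0.33, adjusted p = 0.023; 15.4% of genes fell in that fit). Cdk1 over all UMIs was at 22.2, 40.1 and 36.6 CPM in Apc ICI against 27.2, 23.4 and 18.9 in AOM PN, overlapping (adjusted p = 0.106). In the epithelial-like sums, mast cell markers were at 0.312, 0.466 and 1.11 UMIs per 10000 in Apc ICI against 17.1, 3.22 and 19.6 in AOM PN. Markers of T/NK cells were at 0.172, 0.202 and 0.130 against 1.75, 1.81 and 1.26. Transcripts of other cells therefore moved with the model in these sums, and their part in the Mki67 change was not tested.

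Over all UMIs of T/NK-like cells, most members were higher in AOM PN, but few passed the test. All 40 members were tested, 38 were higher in AOM PN, 19 had an unadjusted p under 0.05, and 3 rose past the adjusted threshold, where 1.82% of genes rose, 1.74% fell and 3.57% were called (0 members fell). The groups did not overlap in 23 of 40 members, against 27.6% of all genes, and the median log2 change was 0.51, against -0.01 for all genes. Top2a was at 101, 69.0 and 78.3 CPM in Apc ICI against 132, 141 and 132 in AOM PN (0.68 ± 0.14, adjusted p = 0.036). Gins2, of the helicase activator, was at 9.04, 4.18 and 3.31 against 15, 18 and 17.2 (1.39 ± 0.30, adjusted p = 0.039). The spindle assembly factor Tpx2 was at 17.4, 14.6 and 17.6 against 26.8, 27.5 and 25.7 (0.68 ± 0.16, adjusted p = 0.049). None of the 3 overlapped between the models. Cenpa went the other way, at 137, 162 and 144 against 124, 109 and 102 CPM, and did not pass the test (-0.40 ± 0.12, adjusted p = 0.092). None of the 3 calls was firm: without any one of Apc ICI 1, 2 or 3 or AOM PN 1 or 2 the count was 0, without AOM PN 3 it was 4, and with thinned sums it was 0 of 13, where 1.20% of genes rose and 1.43% fell and the members' median turned to -0.10. DESeq2 called 5, and 9 rose when cells were clustered with cycle genes. That clustering also changed which cells made up the class. It named as T/NK-like a cluster of 510 cells led by Ikzf2, Ttn and Rora, 352 of them from Apc ICI. What part this had in the 9 was not tested. Without the Cd7 cluster 2 members rose, Cenpf and Ube2c, and Top2a had an adjusted p of 0.052. Mast cell markers in these sums were at 0.882, 1.11 and 1.36 UMIs per 10000 in Apc ICI against 10.8, 3.36 and 18.1 in AOM PN, and their part was not tested.

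In monocyte/macrophage-like cells, mitotic genes were lower in AOM PN. Of 39 members tested, 9 fell and 0 rose, where 1.88% of all genes fell and 3.27% were called, and all 9 were G2 and mitosis genes. The median log2 change was -1.66 over the 24 G2 and mitosis genes tested and -0.31 over the 15 S phase genes, against -0.02 for all genes. The groups did not overlap in 19 members, against 27.5% of all genes. Cdc20, the activator of the anaphase-promoting complex, was at 3.64, 6.53 and 2.92 CPM in Apc ICI against 1.00, 0.952 and 0.538 in AOM PN, from 8 to 41 UMIs per library (log2 change -2.45 ± 0.40, edgeR adjusted p = 0.017). Ube2c of the same complex was at 13.1, 18.6 and 12.8 against 7.16, 3.75 and 3.57 (-1.66 ± 0.30, adjusted p = 0.023). Cdk1 was at 4.58, 8.92 and 7.30 against 2.23, 1.12 and 2.49 (-1.81 ± 0.37, adjusted p = 0.035). Each of these was lower in all 3 AOM PN tumours than in any Apc ICI tumour.

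Of the mitotic cyclins, Ccna2 and Ccnb2 fell. Ccna2 was at 3.10, 5.25 and 2.56 CPM against 1.16, 0.616 and 0.440 (-2.39 ± 0.44, edgeR adjusted p = 0.026), and Ccnb2 at 5.93, 7.80 and 2.92 against 2.00, 0.784 and 2.01 (-1.87 ± 0.42, adjusted p = 0.0499). Ccnb1 did not pass the test, at 2.16, 3.34 and 1.83 against 1.16, 0.504 and 0.538 (-1.82 ± 0.44, adjusted p = 0.058). The kinetochore motor Cenpe was at 5.53, 7.96 and 2.19 against 1.31, 0.840 and 1.22 (-2.30 ± 0.41, adjusted p = 0.023). The mitotic kinase Plk1 was at 2.29, 3.03 and 1.10 against 0.539, 0.336 and 0.245 (-2.64 ± 0.47, adjusted p = 0.023), from 3 to 19 UMIs per library. Cdca3, an F-box protein of mitotic entry, changed by -2.05 ± 0.44 (adjusted p = 0.041) and the passenger complex subunit Birc5 by -1.95 ± 0.44 (adjusted p = 0.049). Ccna2, Ccnb2, Cenpe, Plk1, Cdca3 and Birc5 did not overlap between the models. Mki67 did not pass the test (16.6, 43.1 and 19.7 against 21.5, 21.8 and 21.9 CPM; -0.30 ± 0.31, adjusted p = 0.613), nor did Pcna (55.6, 47.0 and 38 against 34.9, 56.6 and 43.4; -0.07 ± 0.20).

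The count of 9 depended on single libraries, on the C1q cluster and on the clustering. It was 1 without Apc ICI 1, 0 without Apc ICI 2, 3 without Apc ICI 3, 13 without AOM PN 1, 3 without AOM PN 2 and 7 without AOM PN 3. On thinned sums 2 of 18 members fell, Ube2c (-1.60 ± 0.38, adjusted p = 0.036) and Cdk1 (-2.24 ± 0.48, adjusted p = 0.021), where 1.71% of genes fell. In the C1q cluster alone 0 of 20 members were called by edgeR (3 at an unadjusted p under 0.05; median 0.19), and outside it 0 of 32 (12 unadjusted; median -0.54). On the whole class, DESeq2 called 16, a fit with the replicate number as a block 1, cells with doublets kept 3, and cells clustered with cycle genes 0 of 40 by edgeR (14 at an unadjusted p under 0.05; median -0.43). Macrophage markers themselves were at 161, 175 and 150 UMIs per 10000 in the Apc ICI sums and 88.1, 74.1 and 113 in the AOM PN sums, and mast cell markers at 0.167, 0.430 and 0.591 against 7.57, 1.34 and 13.1. Cycling cells of the class held more of the class's own markers than the other cells did, 205.5 against 105.2 per 10000.

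**Figure D5:**
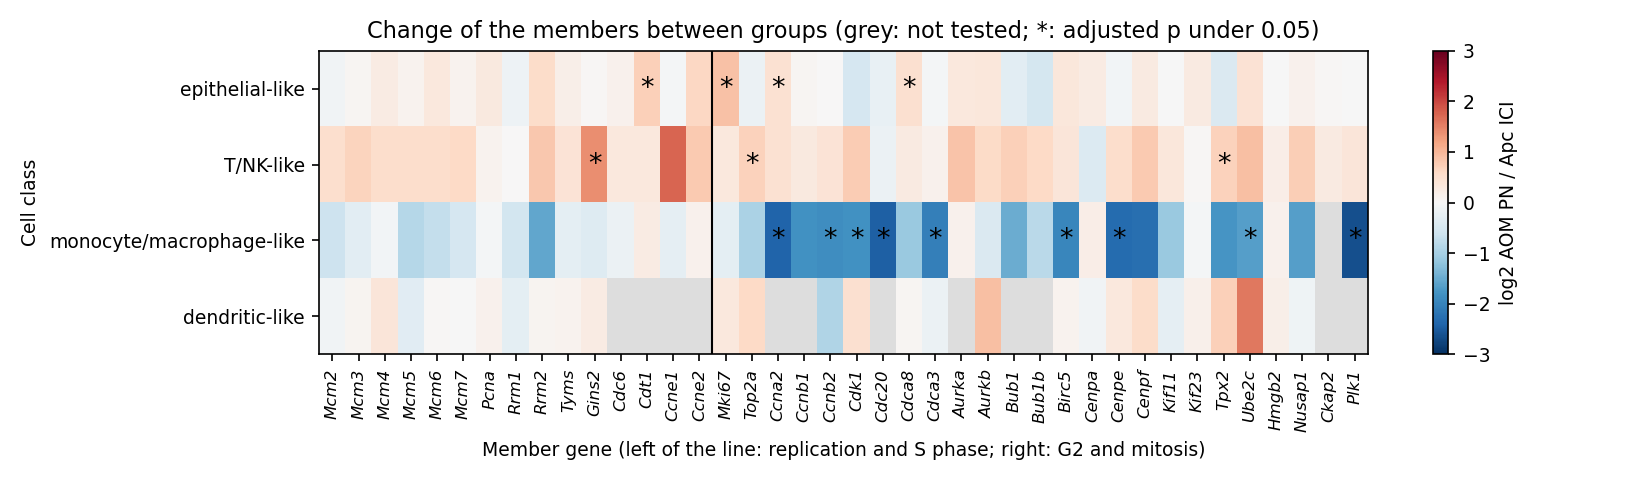
Log2 change of AOM PN over Apc ICI (colour) for the 40 members (x axis, S phase genes left of the line) in 4 cell classes (y axis), with marks where the edgeR adjusted p is under 0.05 and blanks where a gene was not tested. Epithelial-like cells have 4 called members, T/NK-like cells 3, monocyte/macrophage-like cells 9, all lower, and dendritic-like cells 0.

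In dendritic-like cells edgeR called 0 of 28 members (2 at an unadjusted p under 0.05, 1 called by DESeq2), where 0.350% of genes were called. Ube2c was the closest, at 5.98, 9.01 and 10.2 CPM against 19.8, 22.2 and 29.3, without overlap (1.58 ± 0.28, adjusted p = 0.057). In B-like cells edgeR called 0 of the 8 members with enough counts (1 at an unadjusted p under 0.05, 0 by DESeq2), where 1.05% of genes were called. Neutrophil-like cells had 3 of 21 members called, where 31.8% of genes were called. Cdt1 was at 5.75, 5.23 and 6.19 CPM in Apc ICI against 1.03, 0.868 and 1.71 in AOM PN (-2.24 ± 0.31, adjusted p = 0.0016), and Hmgb2 at 520, 501 and 570 against 989, 887 and 896 (0.80 ± 0.15, adjusted p = 0.0058). Neither overlapped between the models, in a class with few cycling cells. Kif23, a kinesin of cell separation, rose by 0.55 ± 0.17 (adjusted p = 0.037).

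Whether the models' difference itself differed between classes was tested with a class by group term. From monocyte/macrophage-like to epithelial-like cells it was more positive for 20 of 40 members and more negative for 0, where 11.4% of 13295 genes were more positive and 23.0% were called. Ube2c (2.00 ± 0.25, edgeR adjusted p = 0.00016), Birc5 (2.22 ± 0.29, adjusted p = 0.00022) and Ccna2 (2.84 ± 0.38, adjusted p = 0.00029) led. From monocyte/macrophage-like to T/NK-like cells it was more positive for 10 of 40 members and more negative for 0, where 0.440% of 11812 genes were more positive and 0.821% were called. Cenpe led (2.77 ± 0.33, adjusted p = 0.0070), at 15.9, 20.9 and 8.82 against 24.7, 25.3 and 19.1 CPM in T/NK-like cells. This count was 1, 0 and 1 without Apc ICI 1, 2 and 3 and 13, 6 and 10 without AOM PN 1, 2 and 3. From T/NK-like to epithelial-like cells it was more negative for 5 members and more positive for 0, where 11.8% and 7.86% of genes were, with Tpx2 (-1.21 ± 0.27, adjusted p = 0.0046), Cdk1 (-1.26 ± 0.34, adjusted p = 0.015) and Gins2 (-1.42 ± 0.39, adjusted p = 0.016) first. The median of all genes in that test was -0.13 with TMM factors and -0.01 with RLE factors, and with RLE factors 1 member was more positive and 4 more negative. Without Apc ICI 1 the count of 5 was 13, and without Apc ICI 2 or 3 it was 2. On thinned sums the 3 counts were 1, 0 and 0.

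A list of 35 genes that start or brake the cycle was examined next. In epithelial-like cells 13 rose and 4 fell of 35, where 45.8% of all genes were called, a share near that of the list. Cdkn1c (p57), an inhibitor of cyclin-dependent kinases, was at 233, 207 and 199 CPM in Apc ICI against 19.7, 31.0 and 30.6 in AOM PN (-2.97 ± 0.17, adjusted p = 3.1e-06) by edgeR. The inhibitor Cdkn1b (p27) rose by 1.10 ± 0.14 and Cdk6 by 0.93 ± 0.13, Cdk4 changed by -1.02 ± 0.12, and the cyclin Ccnd1 was at 108, 189 and 182 against 353, 347 and 347 (1.13 ± 0.19). In monocyte/macrophage-like cells Ccnd1 went the other way, at 34.7, 52.7 and 24.8 against 14.1, 12.9 and 15.8 (-1.41 ± 0.24, adjusted p = 0.021). The inhibitor Cdkn1a (p21) rose there, from 868, 814 and 982 to 1499, 1474 and 1346 (0.70 ± 0.12, adjusted p = 0.022). No other of the 29 genes tested there was called, where 3.27% of all genes were. edgeR called 0 of 33 in T/NK-like, 0 of 23 in dendritic-like and 0 of 9 in B-like cells.

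A further list held 59 proliferation genes that are not members. In T/NK-like cells 6 of 57 rose and 0 fell, where 1.82% of all genes rose, among them the spindle midzone protein Prc1 at 20.6, 21.6 and 19.9 CPM against 42.0, 35.4 and 39.9 (0.91 ± 0.15, edgeR adjusted p = 0.016) and the tubulin Tubb5 (0.75 ± 0.12, adjusted p = 0.016). In monocyte/macrophage-like cells 4 of 45 fell and 0 rose, where 1.88% of all genes fell, led by the kinesin Kif20b at 3.37, 3.98 and 4.38 against 0.770, 0.504 and 1.03 (-2.30 ± 0.35, adjusted p = 0.013). In epithelial-like cells 9 rose and 9 fell of 59, below the 45.8% called over all genes, with Cdca7 highest (25.6, 29.3 and 32.1 against 119, 121 and 77.3; 1.88 ± 0.17) and Tubb5 lower (-0.73 ± 0.11). Their median log2 changes were 0.55 in T/NK-like, -0.90 in monocyte/macrophage-like and -0.01 in epithelial-like cells. edgeR called 0 of 31 in dendritic-like and 0 of 11 in B-like cells. The calls of both lists come from the fit over all UMIs of all 6 libraries, and were not examined under the alternative settings. In monocyte/macrophage-like cells that fit called 360 genes, and leaving out 1 library gave 46 to 629. These lists were chosen with the earlier results of these libraries known and are no independent evidence.

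Counting by symbol can mix genes that overlap. In the GENCODE M21 annotation of GRCm38, 30 members overlapped no exon of another gene, 8 overlapped only genes on the other strand and 2 overlapped short RNA genes on their own strand (Mcm7 and Top2a). Cdc20 (chromosome 4, 118432901 to 118437352, minus strand) overlaps Elovl1 and Ube2c (chromosome 2, 164769898 to 164778822, plus strand) overlaps Tnnc2, each on the other strand.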

How the data were processed

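The deposited values are unnormalized UMI counts for each gene in each barcode. They come from Cell Ranger 6.1.2, per the file headers, and, per the submitters' processing notes, from reads mapped to mm10. Neither the gene annotation nor the cell calling rule was stated in the sources used here. Per the labels' protocols, whole tumours were dissociated with a chopper and enzymes, DAPI-positive dead cells were sorted out, and 10x 3′ libraries were sequenced. Gates and dissociation can change which cells and how many shallow cells are seen.

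Barcodes with under 200 genes or over 20% mitochondrial UMIs were dropped, and the 5.50% to 12.9% most like simulated doublets (0.8% expected per 1000 barcodes) were removed. Cells were clustered with leidenalg 0.10.2 (Python 3.11.15) without cycle genes and haemoglobin, and classes were named by detected markers, so names were rebuilt here. Shares of cells at 1000 UMIs have 95% Wilson intervals, which cover counting error only, and no p, since a share over chosen members is a description. Sums per library and class of at least 20 cells were tested with edgeR 4.0.16 in R 4.3.3 (quasi-likelihood F test, TMM factors, filterByExpr, Benjamini-Hochberg over all genes tested, threshold 0.05). The class by group term used the library as a block. Fold changes are log2 AOM PN over Apc ICI with SE. On simulated counts with 200 changed genes, edgeR recovered 43% to 69% of 2-fold and 91% to 98% of 4-fold changes over the 6 classes, and 2.67% to 6.94% of its calls were false. A chi-square test gave at least 195 per degree of freedom between any pair of libraries, so none was a copy.

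Alternatives were thinning depth, the member threshold, doublets, cycle genes in the clustering, normalization, DESeq2 1.42.0, the low-count filter, a replicate block and leaving out each library. Members past the threshold were named, at most 12 per class by lowest p, and 9 members by level. The members and the 2 further lists were chosen with earlier results of these data known. Mast-like cells of Apc ICI were too few for a test.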

Additional observations from a re-analysis of the deposited data

Results flagged for a closer look

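The change from Apc ICI to AOM PN differed between cell classes for several members, by edgeR's test of the class by group term. Between epithelial- and monocyte/macrophage-like cells it differed for 20 of 40 members, where 23.0% of all genes were called and 1 member was on thinned sums, led by Ube2c (log2 difference 2.00), Birc5 (2.22) and Ccna2 (2.84). Between T/NK- and monocyte/macrophage-like cells it differed for 10 (0.821% of all genes; 0 on thinned sums), led by Cenpe (2.77), Ube2c (2.54) and Tpx2 (2.49). Between epithelial- and T/NK-like cells it differed for 5, below the 19.7% of all genes, all more negative in epithelial-like cells with TMM factors, 1 of 5 more positive with RLE factors, and 0 on thinned sums. These were led by Tpx2 (-1.21), Cdk1 (-1.26) and Gins2 (-1.42).

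Erythroid-like cells, which no comparison used, held UMIs of 2 mitotic members far above the neutrophil-like background. By the rule of 3 members, 106 of 560 erythroid-like cells counted as cycling, and S phase genes gave 2.95% of the member UMIs of the class. Ube2c was found in 75.0% of 560 erythroid-like cells at 1000 UMIs without haemoglobin and in 0.468% of neutrophil-like cells. Nusap1 was found in 46.6% and 0.156%. Mki67 (8.75%, against 4.98% of epithelial-like cells), Ccnb2 (6.07%, against 2.41%) and Rrm2 (4.11%, against 1.94%) were also found more often there, while Top2a (2.50%, against 5.33%) and Cdk1 (0.179%, against 2.76%) were found less often.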

How the results depend on the processing

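The difference in cycling share (AOM PN minus Apc ICI, percentage points) turned, or moved beyond the spread between libraries, under these settings. In epithelial-like cells it was 0.0664 at 1500 UMIs and -24.3 without thinning. In T/NK-like cells it was -9.16 without thinning. In monocyte/macrophage-like cells it was -1.25 at 500 UMIs, -3.94 at 1500, 4.49 without thinning, -3.91 with 2 members, 3.81 in the C1q cluster only and -0.407 without it. In dendritic-like cells it was -0.0529 with 2 members, and in B-like cells 3.53 with 2 members and -2.02 without thinning. Smaller moves, within that spread but over 1.5 times, were -3.65 at 500 UMIs, -3.10 with 4 members and -0.976 with doublets kept in epithelial-like cells, and 0.623 at 500 UMIs, 1.05 with 2 members and 1.10 without the Cd7 cluster in T/NK-like cells. They were 0.264, 1.80 and 0.652 at 500 UMIs, 1500 UMIs and 4 members, 0.520 with doublets kept and 0.488 clustered with cycle genes in dendritic-like cells. They were 2.06 and 3.22 at 500 and 1500 UMIs, 0.223 without Hmgb2 and Pcna and 0.250 clustered with cycle genes in B-like cells. Leaving out 1 library gave -3.68 to -0.987 in epithelial-like, 1.41 to 3.33 in T/NK-like, -2.78 to -1.81 in monocyte/macrophage-like, -0.401 to 2.14 in dendritic-like and -0.492 to 2.22 in B-like cells. Counts of members called moved as follows. Thinned sums gave 1 in epithelial-, 0 in T/NK- and 2 in monocyte/macrophage-like cells, and 1, 0 and 0 for the class by group tests (epithelial with monocyte/macrophage, epithelial with T/NK, T/NK with monocyte/macrophage). DESeq2 gave 1, 5, 16 and 1 in epithelial-, T/NK-, monocyte/macrophage- and dendritic-like cells. No low-count filter gave 13, 17, 1 and 7 in T/NK-, monocyte/macrophage-, dendritic- and B-like cells. RLE factors gave 2 in epithelial-like cells, clustering with cycle genes 2, 9 and 0 in epithelial-, T/NK- and monocyte/macrophage-like cells, and keeping doublets 3 in monocyte/macrophage-like cells. Leaving out 1 library gave 1 to 4, 0 to 4, 0 to 13, 0 to 0, 0 to 1 and 2 to 4 in epithelial-, T/NK-, monocyte/macrophage-, dendritic-, B- and neutrophil-like cells, and 14 to 19, 2 to 13 and 0 to 13 for the 3 class by group tests. The causes were not tested.

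The median log2 change of the members turned to -0.38 in epithelial-like and -0.10 in T/NK-like cells on thinned sums, to 0.19 in the C1q cluster and to -0.0686 in neutrophil-like cells clustered with cycle genes. Leaving out 1 library gave -0.0196 (without Apc ICI 1) to 0.21 in epithelial-like and -0.13 to 0.43 in neutrophil-like cells. Ccna2 (-0.27) and Cdca8 (-0.22) turned in epithelial-like cells on thinned sums, and Birc5 (0.0034) in the C1q cluster. Over 443 single values, 257 stayed the same, 129 were weaker, 47 moved and 10 turned. They comprise changes of called members, counts of all genes called and median changes. A called member stayed the same where it kept direction and side of the threshold, and was weaker where only the direction held. Counts and medians stayed the same where they moved little.

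With a replicate block, members called were 3 in epithelial-, 2 in T/NK-, 1 in monocyte/macrophage-, 0 in dendritic- and 0 in B-like cells. Same-numbered tumours did not deviate together (correlations -0.29 to 0.09), so the numbers were not taken as pairs.

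Cell numbers limit the B-like shares, which rest on 1 to 4 cycling cells per library. The C1q and Cd7 cluster splits were chosen after seeing the data.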
